A study of Mus musculus with 4 samples.

Results

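Chromosome replication depends on a set of genes that load the MCM helicase at origins, build the fork, copy the strands and make deoxynucleotides. A total of 51 such genes were taken by gene symbol from a table of 22556 genes measured in whole mouse lungs at embryonic day E16.5, and all 51 were present and passed the low-value filter, which 13770 genes passed. They were examined by role: 6 subunits of the MCM2-7 helicase, 2 other MCM genes, 6 subunits of the origin recognition complex (ORC), 9 licensing and firing genes, 9 genes of the sliding clamp, its loader and the single-strand binding protein RPA, 9 polymerase and primase genes, 2 genes of Okazaki fragment maturation, 5 genes of nucleotide supply and 3 genes of fork stability or methylation inheritance.

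Shh-Stk11 embryos carried Shh-Cre with both copies of Stk11 floxed (Stk11F/F, n = 2 libraries), and Control embryos carried the same Cre with 1 floxed copy (Stk11F/+, n = 2 libraries), so that both groups bore the recombinase and at least 1 floxed allele. Shh-Cre is active in the endoderm, from which the epithelium of the lung derives, whereas the organ as a whole was sequenced, so that mesenchymal, endothelial and blood cells kept Stk11. The labels name the strain C57BL/6, the methods describe mixed backgrounds, and neither the labels nor the methods give the litter or sex of a library. STK11, a kinase, is known as a tumor suppressor, and the comparison asks whether lungs without it in the epithelium differed in the transcripts of DNA replication.

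Before S phase, ORC, CDC6 and CDT1 load the MCM2-7 ring onto DNA in an inactive form, and geminin restrains CDT1 so that loading is not repeated. The kinase CDC7-DBF4 together with CDC45 and GINS turns the ring into an active helicase, after which polymerase alpha-primase starts each strand, the RFC clamp loader places PCNA, and polymerases delta and epsilon extend the strands. Many of these genes are known targets of the E2F factors and are transcribed mostly in dividing cells, and in a fetal organ their transcripts come from several cell types at once.

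Promoter sequence was examined first, because many of these genes are known to be under E2F control. The 250 bases before each start in the RefSeq promoters of GRCm38.p6 were searched on both strands for TTTCCCGC, TTTGGCGC, TTTCGCGC and TTTGCCGC, 4 forms of the E2F element, with overlapping matches merged. Of the 42 members with a promoter entry, 9 (21.4%) held a match, against 3.87% of 9681 tested genes and 2.16% of all 27025 genes with an entry. The CCAAT box, the element read by NF-Y, stood in 25 of the 42 members (59.5%), against 40.1% of tested genes and 37.5% of all genes with an entry. The 10 windows that held the matches run, from 5′ to 3′ on the strand of the gene and with the matched bases in capitals and up to 20 bases on either side, as follows. They are shown because the differences between replicates of these 9 genes are set beside those of members without a match further on.
Cdc6: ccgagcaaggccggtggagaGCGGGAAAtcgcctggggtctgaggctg
Mcm5: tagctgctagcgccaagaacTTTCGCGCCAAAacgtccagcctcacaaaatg
Mcm6, nearer the start: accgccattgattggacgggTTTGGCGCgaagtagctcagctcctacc
Mcm6, farther from the start: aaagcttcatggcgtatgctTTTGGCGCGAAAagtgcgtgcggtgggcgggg
Mcm7: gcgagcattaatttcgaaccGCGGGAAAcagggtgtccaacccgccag
Orc1: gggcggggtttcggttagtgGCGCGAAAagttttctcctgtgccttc
Orc3: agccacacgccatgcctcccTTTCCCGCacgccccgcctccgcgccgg
Pola1: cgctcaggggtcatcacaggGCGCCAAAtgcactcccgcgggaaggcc
Rfc3: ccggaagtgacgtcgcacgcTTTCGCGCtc
Uhrf1: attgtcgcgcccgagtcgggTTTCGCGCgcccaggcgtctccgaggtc

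On the forward strand of GRCm38.p6 these windows lie at chr11:98907993-98908040 for Cdc6, chr8:75109336-75109387 for Mcm5, chr4:108579407-108579453 for Orc1 and chr17:56304108-56304155 for Uhrf1. On the reverse strand they lie at chr1:128359725-128359772 and chr1:128359784-128359835 for Mcm6, chr5:138172021-138172068 for Mcm7, chr4:34614956-34615003 for Orc3, chrX:93632266-93632313 for Pola1 and chr5:151651209-151651238 for Rfc3. The capitals begin between 10 bases (Rfc3) and 185 bases (Uhrf1) before the annotated start. In Mcm5 and in the farther window of Mcm6 the capitals cover 12 bases in which 2 matches on opposite strands overlap. A match describes the letters in the window, and binding was not measured.

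The libraries gave the following frame for the 51 genes. From the steps between low values, depth was estimated at 30.8 to 38.0 M reads per library, and the lowest estimated number of reads behind a member in any library was 178, for Orc1. Stk11 stood at 44.0 and 45.5 FPKM (fragments per kilobase of transcript, scaled to the mapped reads of the library) in Control and at 29.5 and 26.0 FPKM in Shh-Stk11, a log2 fold change of -0.69 (adjusted p = 0.0499, limma with Benjamini-Hochberg adjustment). Ddx3y, which lies on the Y chromosome, reached 23.5 FPKM in Shh-Stk11 library 2, whereas no other library exceeded 0.0285 FPKM. Xist was at 65.1 and 90.7 FPKM in Control and at 169 and 0.239 FPKM in Shh-Stk11. By these transcripts, Shh-Stk11 library 2 was unlike the other libraries in sex. The methods describe the replicates as independent biological samples. The SEs and p-values below come from limma with 2 libraries per group. In that test the variance of a gene is drawn partly from other genes of similar level (prior degrees of freedom 4.48, residual 2). An exact permutation test of 2 against 2 cannot give a two-sided p below 0.333.

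None of the 51 replication genes differed between Shh-Stk11 and Control lungs at an adjusted p under 0.05 (limma on log2(FPKM + 0.1), Benjamini-Hochberg over 13770 genes), where 2.27% of all tested genes passed (0.98% higher in Shh-Stk11 and 1.29% lower). The smallest adjusted p of a member was 0.247, for Orc4. At an unadjusted p under 0.05, 3 members were higher in Shh-Stk11 (Pola1, Orc4 and Rfc1) and 0 were lower, 3 of 51 in all, against 15.2% of the tested genes (8.04% higher and 7.18% lower). These calls depended on the processing: with the trend on transcript length and GC content removed, 0 members were higher and 2 were lower at that level (Rpa3 and Orc5), against 14.5% of 13634 tested genes (7.09% higher and 7.43% lower). The median log2 fold change of Shh-Stk11 against Control was -0.07 for the members and -0.05 for all tested genes, with 17 members above 0 and 34 below, beside 41.7% of tested genes above 0. Single members ran from -0.28 for Pold2 to 0.69 for Pola1. Library values did not overlap between the groups for 6 members, 4 of them higher in Shh-Stk11 (Orc3, Orc4, Rfc1 and Pola1) and 2 lower (Gins4 and Rpa1), while 46.8% of tested genes did not overlap (19.2% higher and 27.6% lower). The 95% interval of the log2 fold change reached a median of 0.51 to either side and lay between -1 and 1 for 50 of the 51 genes, the exception being Pola1, whose upper bound was 1.32. Values from whole lung mix the number of cells of a type with the RNA in each of them, in either direction, and these cannot be told apart.

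**Figure D1:**
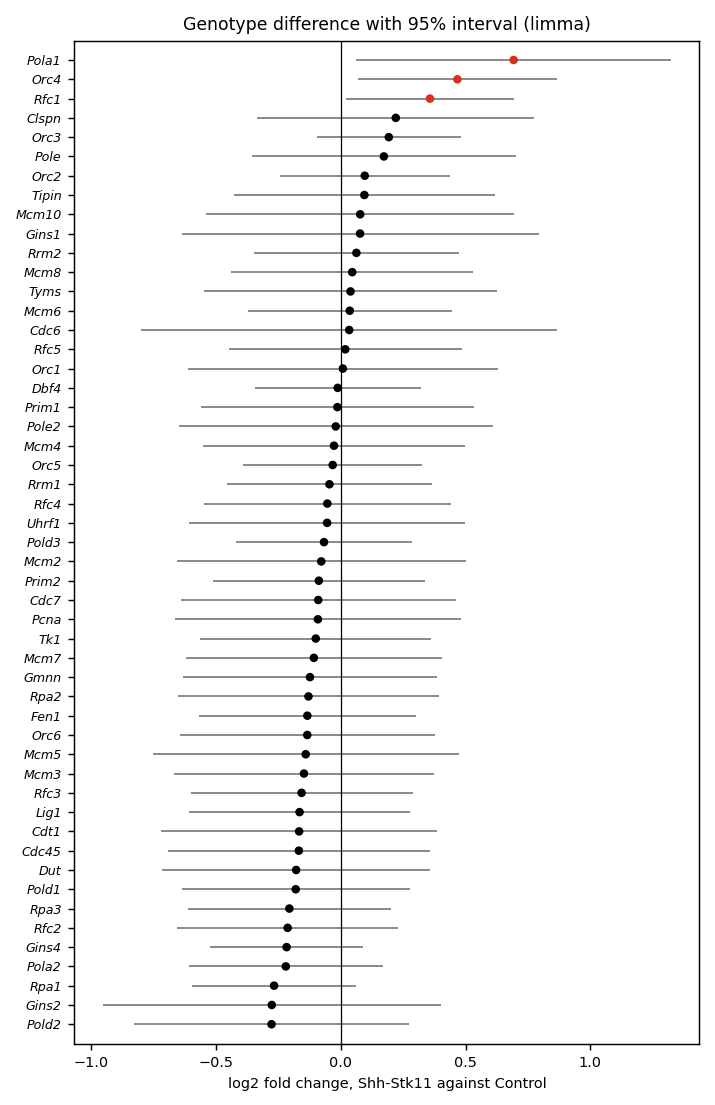
The log2 fold change of Shh-Stk11 against Control is plotted for each of the 51 genes on log2(FPKM + 0.1), in order of size, with its 95% interval from limma (2 libraries per group). The 3 genes in red, Pola1, Orc4 and Rfc1, had an unadjusted p under 0.05, and the intervals of all other genes cover 0.

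The 6 subunits of the MCM2-7 ring, which unwinds DNA ahead of the fork, had log2 fold changes of -0.15 to 0.04 with a median of -0.09, and the 2 groups overlapped for every subunit. Mcm2 was at 18.1 and 25.6 FPKM in the Control libraries and at 24.9 and 16.7 FPKM in the Shh-Stk11 libraries, listed here and below as library 1 then library 2. Mcm3 was at 27.1 and 38.3 FPKM in Control and 33.8 and 25.0 FPKM in Shh-Stk11. Mcm4 was at 25.8 and 37.2 FPKM in Control and 35.2 and 26.3 FPKM in Shh-Stk11. In all of these, Control library 2 was highest, Shh-Stk11 library 1 was next, and the remaining libraries lay close together. Mcm5 was at 20.9 and 33.6 FPKM in Control and 28.2 and 20.5 FPKM in Shh-Stk11. Mcm6 was at 53.6 and 70.8 FPKM in Control and 67.6 and 59.0 FPKM in Shh-Stk11. Mcm7 was at 37.1 and 55.5 FPKM in Control and 46.7 and 38.0 FPKM in Shh-Stk11. Summed over the 6 subunits, the level was 183 and 261 FPKM in Control and 236 and 185 FPKM in Shh-Stk11, so that each genotype held 1 high and 1 low library.

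**Figure D2:**
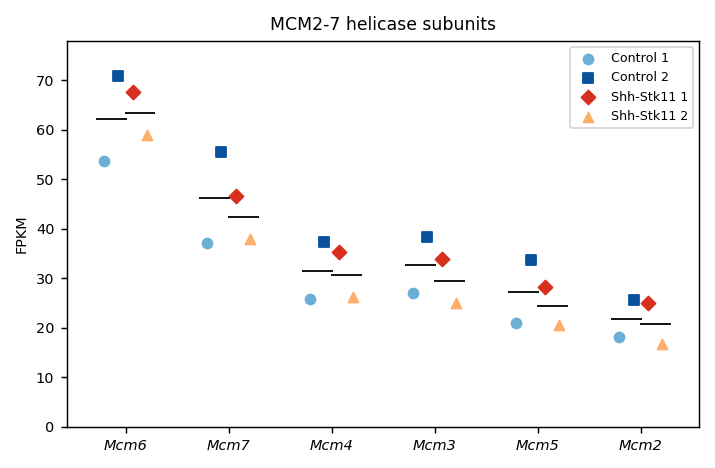
FPKM of the 6 MCM2-7 subunits in each of the 4 libraries is plotted on a linear axis, with black bars at the group means. For every subunit Control 2 is the highest library, at 25.6 to 70.8 FPKM, and Shh-Stk11 1 the second.

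The order of the subunits was steadier than their level. FPKM is a level per length of transcript, so subunits could be compared within a library. Mcm6 exceeded Mcm7 by 1.28 to 1.55 times and Mcm7 exceeded Mcm4 by 1.33 to 1.49 times in 4 of 4 libraries. Mcm4 and Mcm3 did not differ in a fixed direction, with ratios of 0.955 to 1.05 and Mcm4 above Mcm3 in 2 of 4 libraries. Mcm3 exceeded Mcm5 by 1.14 to 1.29 times and Mcm5 exceeded Mcm2 by 1.13 to 1.31 times in 4 of 4. Across libraries the ranges of all neighbouring subunits overlapped. Mcm6 made up 27.1% to 31.8% of the summed level of the ring, and Mcm2 9.0% to 10.5%. The other MCM genes were far lower. Mcm10, which helps the helicase start, was at 5.07 and 8.32 FPKM in Control and 7.85 and 6.00 FPKM in Shh-Stk11 (log2 fold change 0.08). Mcm8, a helicase of recombination repair, was at 3.15 and 4.17 FPKM in Control and 4.14 and 3.39 FPKM in Shh-Stk11 (0.05).

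Among the ORC genes, whose products mark origins, log2 fold changes ran from -0.13 for Orc6 to 0.47 for Orc4 with a median of 0.05. Orc4 was at 8.51 and 10.9 FPKM in Control and at 14.4 and 12.3 FPKM in Shh-Stk11, so that both Shh-Stk11 libraries lay above both Control libraries. Its log2 fold change was 0.47 ± 0.165 (SE, n = 2 per group), with a 95% interval of 0.07 to 0.86, an unadjusted p of 0.0279 and an adjusted p of 0.247 in limma. Orc3 was at 12 and 12.7 FPKM in Control and 14.2 and 14.1 FPKM in Shh-Stk11 (log2 fold change 0.19, interval -0.10 to 0.48), also without overlap. Orc6 had the highest mean level of the complex, at 27.6 and 42.7 FPKM in Control and 32.9 and 29.7 FPKM in Shh-Stk11. Orc1, the largest subunit, was the lowest of all 51 members, at 1.66 and 2.63 FPKM in Control and 2.27 and 1.95 FPKM in Shh-Stk11. Orc2 and Orc5 had log2 fold changes of 0.10 and -0.03. Orc4 made up 11.1% and 10.7% of the summed ORC level in Control and 15.4% and 14.1% in Shh-Stk11, and Orc6 made up 36.1% and 42.1% in Control and 35.1% and 33.9% in Shh-Stk11. The shares of the other 4 subunits overlapped between the groups.

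For the 9 licensing and firing genes the median was -0.12 on the log2 scale, and 7 of the 9 were below 0. Gins2, a subunit of the GINS complex that couples the helicase to polymerase epsilon, was at 18.1 and 33.4 FPKM in Control and 22.4 and 18.3 FPKM in Shh-Stk11 (log2 fold change -0.28, interval -0.95 to 0.40). The negative value rested on the single Control library at 33.4 FPKM: against Control library 1 alone it was 0.16. Gins4 was at 38.6 and 44.7 FPKM in Control and 35.9 and 35.6 FPKM in Shh-Stk11 (-0.22, interval -0.52 to 0.09), 1 of the 2 members with both Shh-Stk11 libraries below both Control libraries. Cdc6, the loader with the lowest level of this role, was at 3.33 and 6.21 FPKM in Control and 6.03 and 3.6 FPKM in Shh-Stk11 (0.03). Cdc6 also had the largest difference between the Shh-Stk11 libraries of any member, 0.73 on the log2 scale. The CDT1 loader, its inhibitor geminin (Gmnn) and Cdc45 had log2 fold changes of -0.17, -0.12 and -0.17, the kinase genes Cdc7 and Dbf4 -0.09 and -0.01, and Gins1 0.08.

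For the clamp, its loader and RPA, the median log2 fold change was -0.13. Pcna, the sliding clamp that tethers polymerases, had the highest level of the 51 members, at 108 and 175 FPKM in Control and 139 and 119 FPKM in Shh-Stk11 (log2 fold change -0.09). Rpa1, the large subunit of the protein that coats single-stranded DNA, was at 46.9 and 55.7 FPKM in Control and 44.2 and 40.8 FPKM in Shh-Stk11, without overlap. Its log2 fold change was -0.27 (interval -0.60 to 0.06, unadjusted p = 0.0956, adjusted p = 0.430 in limma), and the partner genes Rpa2 and Rpa3 were at -0.13 and -0.21. Rfc1, the largest subunit of the clamp loader, differed in sign from most of this role: it was at 13.5 and 15.5 FPKM in Control and 19.9 and 17.3 FPKM in Shh-Stk11. Its log2 fold change was 0.36 ± 0.140 (SE, n = 2 per group), with an interval of 0.02 to 0.69, an unadjusted p of 0.0407 and an adjusted p of 0.296 in limma. The small subunits Rfc2, Rfc3, Rfc4 and Rfc5 were at -0.21, -0.16, -0.05 and 0.02. Rfc1 therefore made up 10.1% and 8.24% of the summed loader level in Control and 12.4% and 12.1% in Shh-Stk11, whereas Rfc2 made up 32.2% and 32.3% in Control and 29.0% and 29.3% in Shh-Stk11. Of the loader shares, 2 were higher in Shh-Stk11, 2 were lower and 1 overlapped between the groups. All 3 shares within RPA overlapped.

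Of the polymerase and primase genes, Pola1 stood apart. Pola1, the catalytic subunit of polymerase alpha, was at 4.06 and 6.23 FPKM in Control and at 9.94 and 6.75 FPKM in Shh-Stk11. The groups did not overlap, but the lower Shh-Stk11 library was close to the higher Control library. The log2 fold change was 0.69 ± 0.262 (SE, n = 2 per group), with an interval of 0.06 to 1.32, an unadjusted p of 0.0359 and an adjusted p of 0.277 in limma. Its 3 partners in the polymerase alpha-primase complex had values below 0. Pola2 was at 11.2 and 14.5 FPKM in Control and 11.5 and 10.4 FPKM in Shh-Stk11 (log2 fold change -0.22, interval -0.61 to 0.17), and the primase genes Prim1 and Prim2 were at -0.01 and -0.09. Prim1 had the highest mean of this role, at 19.7 and 30.5 FPKM in Control and 27.1 and 21.7 FPKM in Shh-Stk11. As a share of the complex, Pola1 was 7.81% and 8.38% in Control and 14.5% and 12% in Shh-Stk11, and Pola2 was 21.6% and 19.5% in Control and 16.7% and 18.5% in Shh-Stk11. In this complex 1 share was higher in Shh-Stk11, 2 were lower and 1 overlapped between the groups. Shares overlapped for 5 subunits of MCM2-7, with 1 lower, and for all 3 listed subunits each of GINS and polymerase delta.

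The lagging-strand polymerase delta had values below 0 for all 3 listed subunits. Pold2, an accessory subunit, was at 16.5 and 25.2 FPKM in Control and 19.2 and 14.7 FPKM in Shh-Stk11 (log2 fold change -0.28, interval -0.83 to 0.27), while Pold1 and Pold3 were at -0.18 and -0.07. Against Control library 1 alone, Pold2 was at 0.02. For the leading-strand polymerase, Pole was at 4.52 and 5.5 FPKM in Control and 6.85 and 4.63 FPKM in Shh-Stk11 (0.17), and its partner Pole2 had a log2 fold change of -0.02. The groups overlapped for each of these 5 genes.

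The genes that finish Okazaki fragments also overlapped between the groups. Lig1, which seals nicks between fragments, was at 25.5 and 33.3 FPKM in Control and 29.3 and 23.0 FPKM in Shh-Stk11 (log2 fold change -0.17). Fen1, the flap nuclease, was at 18.4 and 24.9 FPKM in Control and 21.4 and 17.8 FPKM in Shh-Stk11 (-0.13). Nucleotide supply had a median of -0.05. Rrm1, the large subunit of ribonucleotide reductase, was at 49.6 and 65.1 FPKM in Control and 59.5 and 51 FPKM in Shh-Stk11 (-0.05), and Rrm2, its S-phase partner, had a log2 fold change of 0.06. Tyms, thymidylate synthase, was at 14.3 and 23.4 FPKM in Control and 20.9 and 16.9 FPKM in Shh-Stk11 (0.04). The thymidine kinase gene Tk1 was at -0.10, and Dut, which removes dUTP, at -0.18. Among the genes of fork stability, the checkpoint adaptor Clspn was at 3.75 and 5.39 FPKM in Control and 6.09 and 4.53 FPKM in Shh-Stk11 (0.22, interval -0.33 to 0.77). Tipin, a subunit of the fork protection complex, was at 39.8 and 62.4 FPKM in Control and 55.7 and 50.8 FPKM in Shh-Stk11 (0.09), and Uhrf1, which carries DNA methylation through replication, was at -0.06.

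Most members differed more between replicates than between genotypes, and they did so together. Control library 2 exceeded Control library 1 in 51 of 51 genes, against 53.2% of the tested genes, by a median of 0.52 and a range of 0.08 (Orc3) to 0.93 (Gins1) on the log2 scale. Shh-Stk11 library 1 exceeded library 2 in 50 of 51, the exception being Orc5, against 46.3% of the tested genes. The median of that difference was 0.25 and its range -0.10 to 0.73. Over all tested genes the medians of these differences were 0.02 and -0.02. The difference between the Control libraries was larger in size than the genotype difference for 45 members (51.2% of tested genes), and that between the Shh-Stk11 libraries for 41 (47.6% of tested genes). A difference between replicates sets single libraries against each other and the genotype difference sets means of 2 libraries, which vary less. In absolute size, the median difference between Control libraries was 0.52 for members and 0.18 for tested genes, and that between Shh-Stk11 libraries 0.25 and 0.16, while the median log2 fold change between genotypes was 0.11 for members and 0.17 for tested genes. These counts were made after the libraries had been inspected, and the 51 genes share the same 4 libraries, so they are 1 pattern and not 51 observations.

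**Figure D3:**
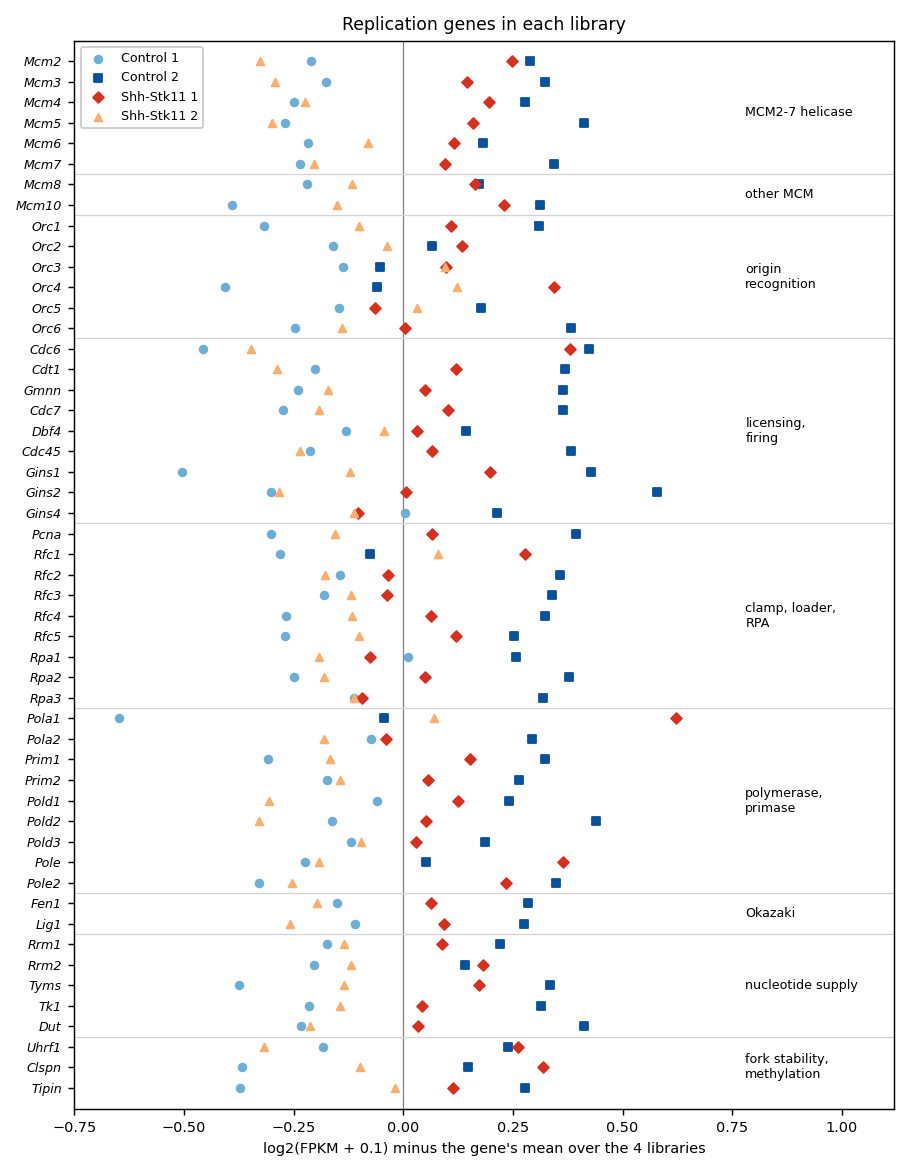
Each row is 1 of the 51 genes, grouped by role, and each point on the x axis is 1 library's log2(FPKM + 0.1) minus the mean of that gene over the 4 libraries. Control 2 is highest for 42 genes and Control 1 lowest for 37, so that both extremes are Control libraries for most genes.

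Control library 2 was the highest library for 42 members (34.2% of tested genes) and Shh-Stk11 library 1 for the other 9, namely Orc2, Orc3, Orc4, Rfc1, Pola1, Pole, Rrm2, Uhrf1 and Clspn. Control library 1 was the lowest for 37 (21.7% of tested genes) and Shh-Stk11 library 2 for 14. The most frequent order, Control 2 above Shh-Stk11 1 above Shh-Stk11 2 above Control 1, was held by 28 members (54.9%) and by 4.13% of the tested genes. In 44 members, Control 2 and Shh-Stk11 1 were both above the remaining libraries, against 13.6% of the tested genes. The summed level of the 51 genes was 1165 and 1660 FPKM in Control and 1426 and 1217 FPKM in Shh-Stk11. The lead of Control library 2 remained with other scalings: its median difference from Control library 1 was 0.48 after quantile normalization, 0.50 after median-ratio scaling and 0.48 with the trend on transcript length and GC content removed, and the corresponding differences between the Shh-Stk11 libraries were 0.29, 0.28 and 0.34. The 9 members with an E2F-type match printed above had a median difference of 0.58 between the Control libraries and 0.30 between the Shh-Stk11 libraries, beside 0.50 and 0.25 for the 33 whose searched promoter held none.

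**Figure D4:**
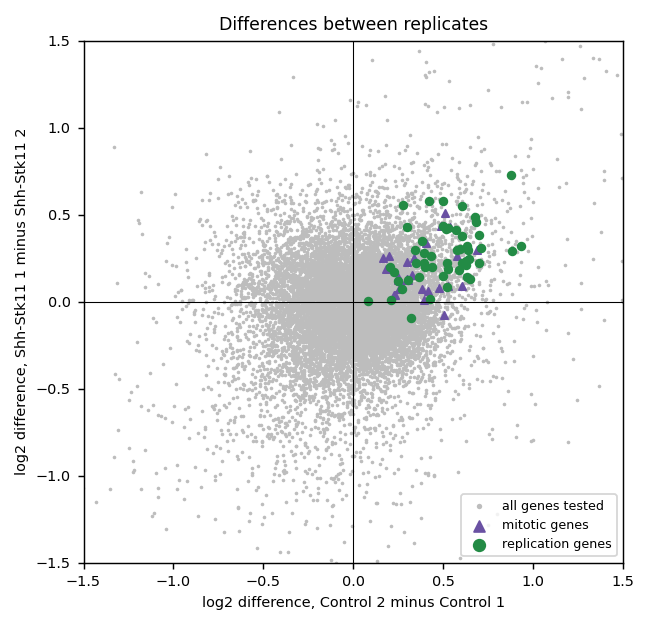
The log2 difference of Control 2 from Control 1 (x axis) is plotted against that of Shh-Stk11 1 from Shh-Stk11 2 (y axis) for all tested genes in grey, the 27 mitotic genes as purple triangles and the 51 replication genes in green; 157 genes lie beyond the axes. All 51 replication genes lie right of 0 and 50 lie above 0.

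Which Control library was used set the sign of the members' median. Against Control library 1 alone, the Shh-Stk11 libraries had log2 fold changes above 0 for 47 of 51 members, with a median of 0.18. Against Control library 2 alone, 46 of 51 were below 0, with a median of -0.33. The medians of all tested genes were -0.04 and -0.06 in these comparisons. Without Shh-Stk11 library 1 the members' median was -0.20 (43 below 0), and without Shh-Stk11 library 2, the library with high Ddx3y, it was 0.06 (34 above 0). All tested genes had medians of -0.03 and -0.06 there. For each of the 6 MCM2-7 subunits the value was above 0 without Control library 2 and below 0 without Control library 1, with medians of 0.19 and -0.36. No member passed an adjusted p of 0.05 in any of these 4 fits (limma, in which a lone library is taken to vary like the other group), and unadjusted p was under 0.05 for 5 members without Control library 2 (13% of tested genes), 10 without Control library 1 (14.3% of tested genes), 0 without Shh-Stk11 library 1 (10.7%) and 2 without Shh-Stk11 library 2 (13.3%).

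**Figure D5:**
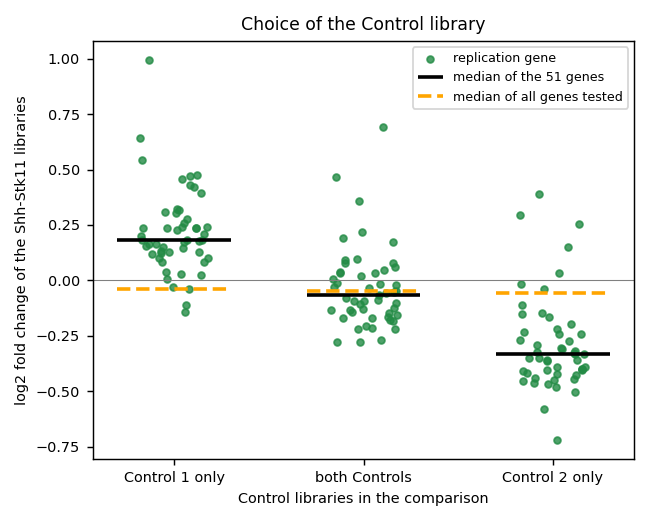
The log2 fold change of the Shh-Stk11 libraries is plotted for each of the 51 genes against Control 1 only, both Control libraries and Control 2 only, as 1 point per gene spread sideways at random. The black line is the median of the members, from 0.18 through -0.07 to -0.33, and the dashed orange line is the median of all tested genes, from -0.04 to -0.06.

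For Pola1, Orc4 and Rfc1 both Shh-Stk11 libraries lay above both Control libraries, so leaving out a library could not change the sign. With each library left out, the log2 fold change of Pola1 ran from 0.39 to 1.0, that of Orc4 from 0.29 to 0.64 and that of Rfc1 from 0.25 to 0.46. All of them were smaller once the trend on transcript length and GC content was removed, when Orc4 was at 0.13 with an unadjusted p of 0.359 (limma). Pola1 was then at 0.47 (unadjusted p = 0.137) and Rfc1 at 0.32 (unadjusted p = 0.0606, limma). Other members moved down as well: Rpa3 went from -0.21 to -0.48 (unadjusted p = 0.0123, adjusted p = 0.189 in limma), Orc5 from -0.03 to -0.28 (unadjusted p = 0.0340, adjusted p = 0.292) and Orc3 from 0.19 to -0.003. The removal did not lower the set as a whole, whose median went from -0.07 to -0.003. Long transcripts among the members had higher values as a whole. In the 17 longest (3589 to 7163 bases) the median log2 fold change was 0.03 with 10 above 0, and in the 17 shortest (682 to 2490 bases) it was -0.12 with 3 above 0. With the trend removed these medians were 0.04 and -0.02. The exons of Orc4 overlap those of Acvr2a and Mbd5 on the opposite strand by 446 and 136 bases in GENCODE, and those of Gins2 overlap Gse1 by 2758 bases. Overlaps with a protein-coding gene were found for 13 members, and whether the counting used strand is not given in the sources used here, so that reads in such stretches cannot be told apart.

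Other genes of replication were followed as lists by function. Of 32 other fork and licensing genes, 31 nucleotide synthesis genes, 10 replication checkpoint genes, 27 mitotic genes and 24 G1/S regulators, 0 passed an adjusted p of 0.05 (limma, Benjamini-Hochberg), against 2.27% of all tested genes. At an unadjusted p under 0.05, 3, 0, 2, 0 and 2 were higher and 1, 2, 0, 0 and 0 lower, against 8.04% and 7.18% of all tested genes. Their median log2 fold changes were -0.02, -0.06, -0.04, -0.03 and 0.03. The mitotic genes, which act after replication, followed the same libraries: Control 2 exceeded Control 1 in 27 of 27 by a median of 0.34, and Shh-Stk11 1 exceeded Shh-Stk11 2 in 26 of 27 by a median of 0.13. For the other fork and licensing genes the counts were 28 and 27 of 32, for the checkpoint genes 10 and 7 of 10 and for the G1/S regulators 18 and 18 of 24. For the nucleotide synthesis genes outside the set they were 23 and 16 of 31. The shares over all tested genes were 53.2% and 46.3%.

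The values nearest the threshold belonged to Rif1 and Atr, which guard the fork. Rif1, which restrains origin firing and protects stalled forks, was at 2.36 and 2.26 FPKM in Control and 5.97 and 4.28 FPKM in Shh-Stk11 (log2 fold change 1.10, adjusted p = 0.0525 in limma, 0.0242 to 0.341 over the alternatives). Atr, the kinase that senses stalled forks, was at 2.39 and 2.74 FPKM in Control and 5.62 and 4.57 FPKM in Shh-Stk11 (0.96, adjusted p = 0.0537 in limma, 0.0296 to 0.319 over the alternatives). Neither gene overlapped between the groups, and their log2 fold changes were 0.67 and 0.60 once the trend on length and GC content was taken out. Atad5, which unloads PCNA, had a log2 fold change of 1.03 (adjusted p = 0.159), Top1, the topoisomerase that relaxes DNA ahead of the fork, 0.60 (0.146), and Etaa1, an activator of ATR, 0.53 (0.187). Ccnd2, a G1 cyclin, was at 0.75 (adjusted p = 0.127) and Rb1, the repressor of E2F, at 0.34 (0.275). On the lower side were Lrwd1, an ORC-associated gene, at -0.30 (0.307), and the nucleotide genes Shmt1 at -0.38 (0.205) and Guk1 at -0.40 (0.308). At the ends of their lists without an unadjusted p under 0.05 were Rnaseh2c at -0.36, Rad1 at -0.25, Gmps at 0.21, Cdk1 at -0.19, Kif11 at 0.51 and Ccnd3 at -0.33. With the trend on length and GC content removed, unadjusted p was 0.0216 for Top1 and 0.00922 for Ccnd2 (limma). It was 0.0585 for Atad5, 0.0637 for Etaa1, 0.177 for Rb1, 0.148 for Lrwd1, 0.0554 for Shmt1 and 0.128 for Guk1. Gmps was then at -0.22, a change of sign.

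Markers of the tissue's cell types were set beside the library pattern. Ciliated cell markers summed to 166 and 178 FPKM in Control and 52.3 and 49.8 FPKM in Shh-Stk11, and 10 of 13 tested were lower at an adjusted p under 0.05 (limma), against 1.29% of all tested genes. Epithelial markers summed to 1124 and 1187 FPKM in Control and 1258 and 1422 FPKM in Shh-Stk11, mesenchymal markers to 2714 and 2545 against 2061 and 2260, endothelial markers to 966 and 864 against 682 and 726, erythroid markers to 5596 and 5811 against 3746 and 4107, and immune markers to 431 and 398 against 282 and 519. None of these sums was highest in Control library 2 and second in Shh-Stk11 library 1, as most replication genes were. That order cannot occur where the groups do not overlap, as in all of these sums but the immune one. Within each genotype, only the ciliated sums ran the way of the replication genes. Of 13 tested ciliated markers, 8 were higher in Control 2 than in Control 1 (median 0.08) and 9 in Shh-Stk11 1 than in Shh-Stk11 2 (median 0.12). Heart muscle markers did have Control 2 highest and Shh-Stk11 1 second, at 122 and 253 FPKM in Control and 150 and 61.3 FPKM in Shh-Stk11. Of 7 tested markers, 6 were higher in Control 2 than in Control 1 and 7 in Shh-Stk11 1 than in Shh-Stk11 2, and 0 of the 9 were at 0 in any library. Shh-Stk11 2 was lowest for 7 of the 7, whereas Control 1 was lowest for 37 of the 51 replication genes. Skeletal muscle markers also had these libraries highest and second in their sum, at 15.3 and 27.2 FPKM in Control and 17.4 and 15.4 FPKM in Shh-Stk11. Of 4 tested markers, though, 4 were higher in Control 2 than in Control 1 and 1 in Shh-Stk11 1 than in Shh-Stk11 2. The part of adjoining muscle tissue in the pattern of the replication genes was not tested. Estimated depth was also lowest in the libraries where the members were highest, at 31.5 M reads in Control 2 and 30.8 M reads in Shh-Stk11 1, and its part was not tested.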

How the data were processed

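RNA of whole E16.5 lungs, 2 Control and 2 Shh-Stk11, was sequenced by the authors as single-end reads on an Illumina HiSeq. The deposited values are FPKM per gene, made by the authors. The submitters' processing notes name TopHat2 2.0.13 and Cufflinks 2.2.1, and the builds GRCm38 and mm9 without a role for either; the annotation and the strand setting are not given in the sources used here. Gene symbols were matched to GENCODE M21 (20242 directly, 1917 by synonym, 397 unmatched; all 51 members directly) for length, GC content and overlaps. Depth was estimated from whole-read steps: of 1717 genes at 0.001 to 0.3 FPKM in every library, 76.7% sat at whole multiples within 0.2%.

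The 51 members, their roles and the lists were chosen with earlier results of these data known. Values were analysed as log2(FPKM + 0.1) for genes whose mean reached 0.5 FPKM, with limma 3.58.1 in R 4.3.3 (genotype as the only term, eBayes with trend, two-sided, Benjamini-Hochberg over 13770 genes, threshold 0.05). Fold changes on this scale understate those of low genes. The code was tested on simulated data. Genes named with values were the MCM2-7 subunits, members at an unadjusted p under 0.05, the 5 highest and the 5 lowest log2 fold changes, the highest and lowest level of each role, and, in the functional lists, genes at an unadjusted p under 0.05 and both extremes. Ddx3y, Xist and the genes counted by library order were chosen after their values were seen. Alternatives were other pseudocounts, filters and scalings, eBayes settings, a replicate block and leaving out each library.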

Additional observations from a re-analysis of the deposited data

How the results depend on the processing

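Under all 15 alternatives, 0 of the 51 members passed the adjusted threshold, and the smallest adjusted p of a member was 0.186 (limma). Of 239 values of 16 named members, 20 changed sign, in 10 members, none of them past the threshold. Of 210 role and list medians, 4 moved by more than the spread between replicates, all with a Control library left out: -0.14 for the G1/S regulators without Control library 1, and 0.18 for the clamp genes, 0.04 for nucleotide synthesis and 0.14 for the mitotic genes without Control library 2. Leaving out a library shifts a value through the same replicate difference that makes up this spread, so few medians could exceed it. The count is therefore no measure of stability. The members' median was -0.07 and ran from -0.33 to 0.18 with a library left out. Over the whole table, calls higher and lower were 135 and 178. There were 110 higher and 90 lower with a mean of at least 5 FPKM, 0 higher and 1 lower with no filter, 303 and 284 with robust eBayes, 85 and 101 without the trend on length and GC content, and 15 to 64 higher and 23 to 127 lower with a library left out. With no filter 22556 genes were tested in place of 13770. The cause of the other moves was not tested. Stk11 was lower in every fit but, at an adjusted p of 0.0499 as reported, missed the threshold at -0.67 with a pseudocount of 1, -0.69 with a mean of at least 0.1 FPKM, with no filter and with no eBayes trend, -0.62 after quantile normalization, -0.65 after median-ratio scaling, -0.56 with the trend removed and -0.78 to -0.60 with a library left out.

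The libraries of the groups share only a replicate number, and the deviations of same-numbered libraries correlated at -0.114 over 13770 genes. With the replicate block, 6 genes were called higher, 7 lower and 0 members, and Stk11 stayed at -0.69 (adjusted p = 0.154). With the numbers crossed, an alternative chosen after seeing the data, 360 were higher and 315 lower, among them 1 member. With 2 libraries per group, the 95% interval of a typical member reached 0.51 to either side without adjustment. What could be detected depended on the SE that limma gave a gene, which draws partly on other genes. Stk11, with an SE of 0.125, passed the adjusted threshold at -0.69, and Pola1, with an SE of 0.262, missed it at 0.69.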
